A study of Mus musculus with 12 samples.

Results

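The Wnt ligands, their receptors and the modulators of this pathway were followed through the mouse retina after deletion of Otx2 from photoreceptors (PRs). Members were chosen by name: protein-coding genes called Wnt, Fzd, Sfrp or Rspo with a number and optional letter, together with Wif1, Dkk1, Dkk2, Lrp5, Lrp6, Axin1, Axin2, Lef1, Tcf7, Tcf7l1 and Tcf7l2, with at least 10 counts in at least 3 of the 12 libraries. Of 48 genes with such a name, 41 met the minimum, among 54146 genes counted, and all 41 were tested. They comprised 12 Wnt ligands, all 10 Frizzled receptors, both LRP co-receptors, all 4 R-spondins, 7 secreted inhibitors, both Axins and all 4 TCF/LEF factors. The 7 genes under the minimum were all Wnt ligands: Wnt6 had 1 to 17 counts in a library, and Wnt1, Wnt2, Wnt3a, Wnt8a, Wnt8b and Wnt10b had at most 6.

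Wnt proteins are secreted lipid-modified ligands that bind Frizzled receptors, and with an LRP co-receptor they stop a complex built on Axin from marking β-catenin for destruction, so that β-catenin can act on target genes with TCF/LEF factors. Other Wnt signals run through Frizzled receptors without β-catenin and act on cell polarity and the cytoskeleton. R-spondins keep Frizzled receptors at the cell surface, whereas Dkk proteins bind the LRP co-receptors, and Sfrp proteins and Wif1 bind the ligands themselves. In the eye the pathway is best known for retinal vessel growth, where Norrin signals through Fzd4 and Lrp5, and for patterning of the ciliary margin and the lens.

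Single retinas of 12 mice were sequenced, with 1 library per mouse and 3 mice per condition. The mice carried Crx-CreERT2, in which a tamoxifen-dependent Cre is driven by the Crx promoter active in PRs, and Otx2 flox/flox alleles, on a 129/SV background with both sexes used. The P30 control mice (numbered 1 to 3) were collected at the time of injection, and the cKO mice at P32 (mice 4 to 6), P34 (mice 7 to 9) and P38 (mice 10 to 12), which is 2, 4 and 8 d after a single tamoxifen injection at P30. The study describes the RNA as that of the whole retina with RNA of the retinal pigmented epithelium (RPE). Age, tamoxifen and deletion changed together between these groups and cannot be told apart here, and in bulk RNA fewer cells of a type and less RNA per cell cannot be told apart either.

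Libraries held 29701483 to 60145034 counts on genes, of which the 41 members took 0.0375 to 0.0570%. A count of 3 was worth 0.0499 to 0.101 CPM (a count scaled to library size with edgeR's TMM factors). Otx2, counted over all its exons, was at 293 to 328 CPM in the P30 mice and at 307 to 377 CPM in the cKO mice, and since recombination removes 1 coding exon only, this level does not check the deletion. All 8 rod markers were present in every library, with a sum of 63401 to 69707 CPM at P30, 57262 to 62575 CPM at P32, 71918 to 95858.5 CPM at P34 and 70402 to 106103 CPM at P38. The P32 sums were thus all below P30 and the P34 and P38 sums all above. The sum of 6 stroma markers was 64.2 to 94.9 CPM at P30 and 26.5 to 49.4 CPM at P34, while at P32 (38.4 to 72.5 CPM) and P38 (50.1 to 88.8 CPM) it overlapped P30. The sum of 8 lens markers, genes of a tissue that is not retina, ranged from 280 to 45771 CPM, and it was under 1000 CPM in 5 mice: P30 mouse 2, P32 mouse 6 and all 3 P34 mice. P30 mice 2 and 3 stood apart in the sum of 6 pigment genes (820 and 669 CPM, against 29.8 to 129 CPM in the other 10 mice) and in that of 6 smooth muscle markers (181 and 198 CPM, against 9.33 to 48.7 CPM). The smooth muscle marker Des did not set P30 mouse 3 apart (0.832 CPM, against 2.00 CPM in P34 mouse 9). The sum of 8 ciliary body and iris markers was 118 to 137 CPM at P30, 58.0 to 146 CPM at P32, 12.9 to 19.1 CPM at P34 and 56.7 to 104 CPM at P38. Xist, taken as a sign of sex, was over 10 CPM in P30 mice 1, 2 and 3, P32 mice 5 and 6, P34 mouse 9 and P38 mouse 12. It was not in P32 mouse 4, P34 mice 7 and 8 and P38 mice 10 and 11, so sex was not balanced between the conditions.

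Compared per kb of exon over the 12 mice, the most abundant members were Sfrp1 (11.3 CPM per kb), Axin1 (9.74), Fzd5 (7.98), Fzd3 (6.40) and Lrp6 (6.11), and the least abundant were Dkk1 (0.0574), Rspo3 (0.0840) and Wnt3 (0.119). The highest ligands by this mean over 12 mice were Wnt7b (2.89) and Wnt5b (2.34), but not in every condition: at P34 Wnt7b was at 0.148, Wnt5b at 0.806 and Wnt2b, then the highest, at 1.55 CPM per kb. Among the 5 most abundant members, Axin1 kept within 9.40 to 10.1 CPM per kb in all mice, whereas Sfrp1 ranged from 1.20 to 27.8 CPM per kb. At P34 Sfrp1 was at 1.34 CPM per kb, below Axin1 (9.56), Fzd5 (8.36), Fzd3 (7.18), Lrp6 (6.09) and other members. The spread over the 12 mice was wide for a part of the members: the SD of log2 CPM exceeded 1 in 8 of 41 members (19.5%, against 3.76% of all 18628 genes tested), namely Wnt5b, Wnt7a, Wnt7b, Wnt16, Rspo1, Dkk1, Sfrp1 and Wif1.

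**Figure D1:**
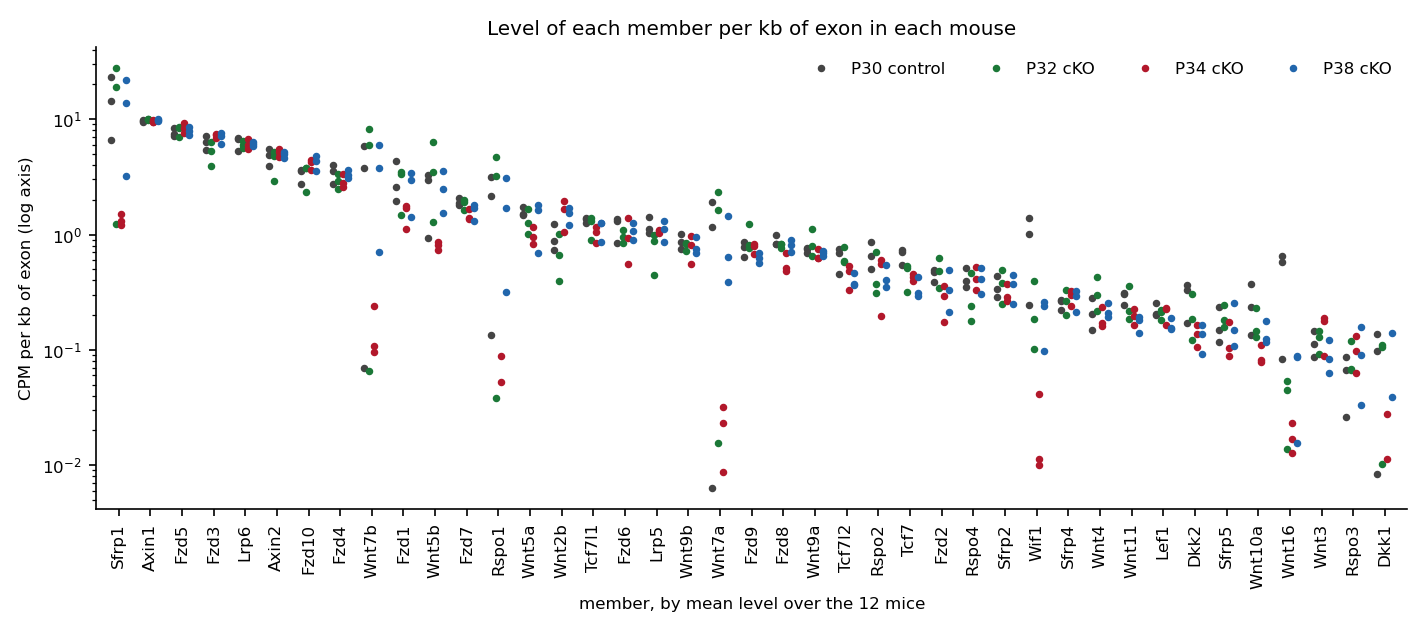
Level of each of the 41 members in each mouse, in CPM per kb of exon on a log axis, with members ordered by their mean over the 12 mice and values of 0 left out. Points of 1 member lie close together for Axin1, Fzd5 and Lrp6 and are spread over more than 1 decade for Sfrp1, Wnt7b, Rspo1, Wnt7a, Wif1, Wnt16 and Dkk1.

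Against the P30 control mice, 2 of the 41 members were lower at P34, Wnt16 and Wif1, and 0 were higher, where a call needed an adjusted p (edgeR quasi-likelihood, Benjamini-Hochberg) up to 0.05 and a change of 0.5 or more on the log2 scale. These are 4.88% of the members, and 0.66% of all genes tested were lower at P34 by the same limits. Wnt16 met the count minimum only with the help of its P30 libraries, which held 23, 142 and 84 counts, since 2 cKO libraries alone reached 10, so its being lower than P30 is partly built into its membership and the 4.88% cannot be set against all genes as independent support. At P32, at P38 and in the mean over all 9 cKO mice, 0 members passed (0.0% of all genes were lower at P32 and at P38, and 0.0537% over all 9 cKO mice). At an unadjusted p with the same limit on the fold change, 3 members were lower at P32 (7.32%, against 1.77% of all genes), 13 at P34 (31.7%, against 5.42%), 6 at P38 (14.6%, against 2.66%) and 5 over all 9 cKO mice (12.2%, against 1.57%). Wnt16 is counted in each of these shares, so the limit from its membership holds for them too. No member was higher at an unadjusted p in these comparisons, against 1.13% of all genes at P32, 0.854% at P34, 0.805% at P38 and 0.311% over all 9 cKO mice. With DESeq2, 1 member passed at P32, Wnt16 (0.134% of all genes passed), 6 at P34, Wnt16, Wif1, Wnt7a, Rspo1, Sfrp1 and Fzd8 (1.98% of all genes), 0 at P38 (0.242%) and 1 over all 9 cKO mice, again Wnt16 (0.247%). The P32 median log2 fold change of the members was -0.09, the P34 median -0.39 and the P38 median -0.14, where that of all genes was between -0.01 and 0.00, and it was negative in 31 of 41 members at P34.

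**Figure D2:**
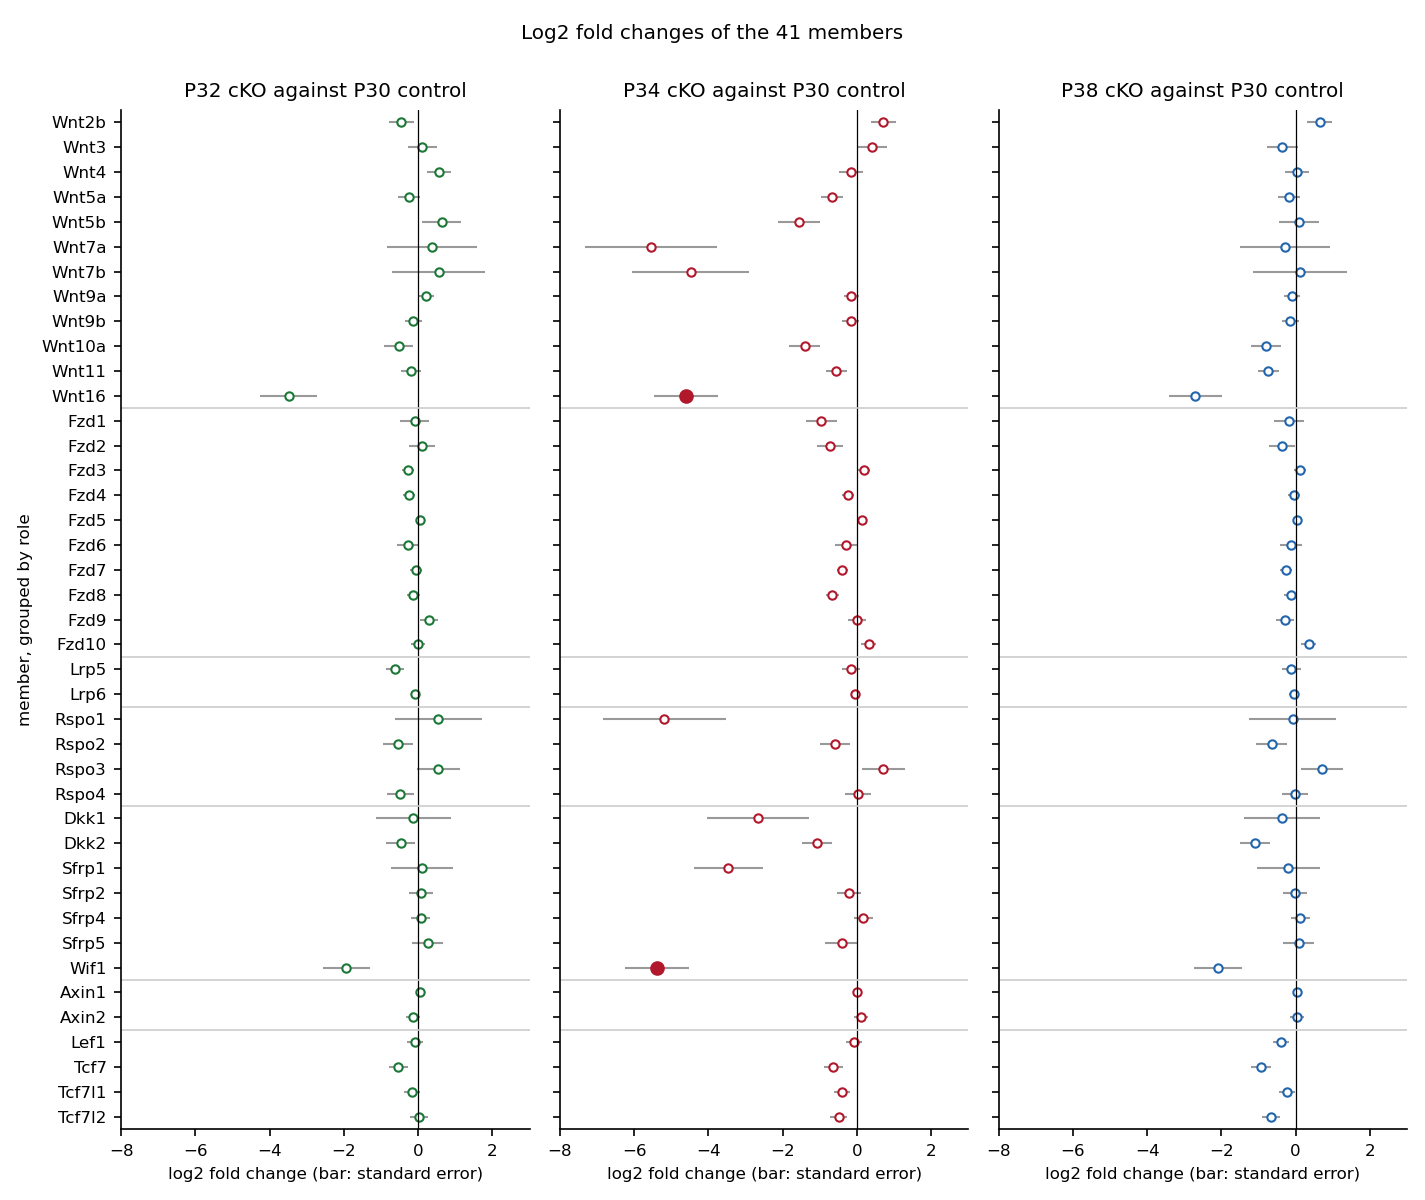
Log2 fold change of each member at P32, P34 and P38 against the P30 control mice, with the standard error as a bar and gray lines between roles; filled points passed the threshold. Wnt16 and Wif1 at P34 are the filled points, at -4.59 and -5.39, and the members farthest from 0 without passing are Wnt7a, Rspo1, Wnt7b and Sfrp1.

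Wnt16 (ENSMUSG00000029671, chromosome 6 of GRCm38 from 22288227 to 22298522, plus strand) is a ligand known from bone and from hair and skin. Its level was 0.363, 2.87 and 2.5 CPM in P30 mice 1, 2 and 3. Later mice had it at 0.0600, 0.233 and 0.197 CPM at P32, at 0.0552, 0.0735 and 0.102 CPM at P34 and at 0.388, 0.375 and 0.0679 CPM at P38. All P32 and P34 values lay below all P30 values, whereas 2 of the 3 P38 values lay just above that of P30 mouse 1. Against P30, edgeR gave a log2 fold change of -3.48 at P32 (standard error 0.77, adjusted p = 0.698), of -4.59 at P34 (standard error 0.86, adjusted p = 0.0342) and of -2.70 at P38 (standard error 0.72, adjusted p = 0.719). At P32 Wnt16 passed by DESeq2 (adjusted p = 0.0152), and by edgeR without the filter on low counts (adjusted p = 0.0329) and without P30 mouse 1 (adjusted p = 0.0312). Over all 9 cKO mice it was -3.39 (standard error 0.57, adjusted p = 0.0553 by edgeR). The 3 P34 libraries held 8 counts in all against 249 in the P30 libraries, a ratio of 22.6 after scaling with a 95% counting interval of 11.3 to 53.0, which covers counting error only.

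Wif1 (ENSMUSG00000020218, chromosome 10 of GRCm38 from 121033960 to 121100650, plus strand) encodes Wnt inhibitory factor 1, a secreted protein that binds Wnt ligands. It was at 0.599, 2.44 and 3.39 CPM in P30 mice 1, 2 and 3. Among cKO mice it was at 0.450, 0.956 and 0.246 CPM at P32, at 0.0276, 0.0245 and 0.102 CPM at P34 and at 0.582, 0.633 and 0.238 CPM at P38. The P34 values were the lowest of the series, and 1 P32 and 1 P38 value lay above P30 mouse 1. By edgeR, Wif1 had a log2 fold change of -1.94 at P32 (standard error 0.64, adjusted p = 0.698), of -5.39 at P34 (standard error 0.87, adjusted p = 0.0153) and of -2.10 at P38 (standard error 0.64, adjusted p = 0.847). The P34 libraries held 5 counts against 273 at P30, a ratio of 39.7 (95% counting interval 16.8 to 123).

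For both genes 7 of 9 cKO values lay below every P30 value, and the 2 highest values of the series were those of P30 mice 2 and 3, which were also the mice with the most pigment and smooth muscle RNA. This held for 5 of 41 members (Wnt10a, Wnt16, Dkk2, Wif1 and Tcf7; 12.2%, against 2.0% of all genes), and in 0 members were these the 2 lowest mice (0.58% of all genes). The pattern was described from Wnt16 and Wif1, which are counted among the 5, and Wnt16 is a member only with the help of its P30 libraries. The 12.2% is therefore a description and not independent support. Without P30 mouse 1 the log2 fold change at P34 was -5.09 for Wnt16 and -5.84 for Wif1, and both passed (edgeR adjusted p = 0.00246 and 0.00234). With P30 mouse 1 as the only control, the log2 fold change at P34 was -2.22 for Wnt16 and -3.57 for Wif1, and neither passed (edgeR adjusted p = 0.804 and 0.508). With the mean log2 CPM of the pigment genes as a covariate these were -1.32 and -2.43, and with that of the ciliary body and iris markers -3.67 and -1.97, and again neither passed. In the fit with the ciliary body and iris score 0 of 18628 genes passed, so lost calls there are not particular to these 2 genes. Without P30 mouse 2 the adjusted p was 0.121 for Wnt16 and 0.0503 for Wif1 by edgeR, and without any 1 of the P34 mice it was 0.167 to 0.198 for Wnt16 and 0.0588 to 0.124 for Wif1. Wnt16 also missed the threshold without P30 mouse 3 (edgeR adjusted p = 0.110) and without P38 mouse 10 or 11 (0.0579 and 0.0596), and where only the P30 and P34 mice were fitted (0.0522).

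**Figure D3:**
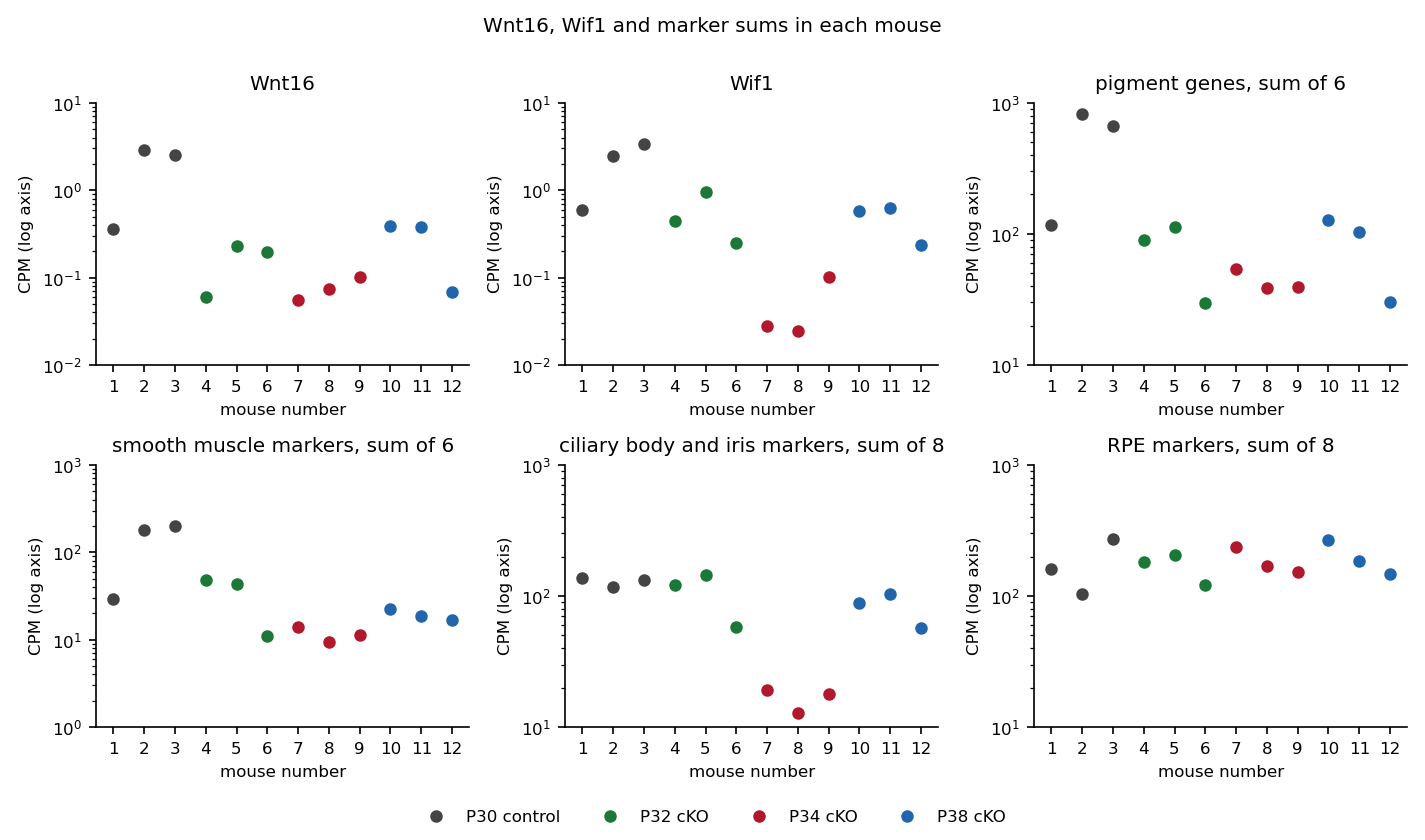
Wnt16, Wif1 and the summed levels of 4 marker lists in each mouse, in CPM on log axes, colored by condition. P30 mice 2 and 3 are the highest mice in Wnt16, Wif1, pigment genes and smooth muscle markers, the P34 mice are the lowest in Wif1 and in ciliary body and iris markers, and the RPE markers overlap between all conditions.

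The region around the start of both genes is shown because they are the members that passed the threshold, and that of Fzd1 because it is the 1 member window with both motifs searched for. Windows of 300 bases (250 before and 50 after the start of a transcript) came from RefSeq on GRCm38.p6, which held 35 windows for 27 of the members. Searched on both strands were TAATCC, the core bound by the homeodomains of OTX2 and CRX, and CTTTGA, the core bound by TCF/LEF factors. In capitals are these motifs (in Fzd1 both lie on the other strand and read as TCAAAG and GGATTA) and, in Wnt16, the CCAAT box, which was looked for after the sequences had been seen. The windows were chr6:22287977-22288276 on the plus strand for Wnt16, chr10:121033754-121034053 on the plus strand for Wif1 and chr5:4758167-4758466 on the minus strand for Fzd1.
Wnt16: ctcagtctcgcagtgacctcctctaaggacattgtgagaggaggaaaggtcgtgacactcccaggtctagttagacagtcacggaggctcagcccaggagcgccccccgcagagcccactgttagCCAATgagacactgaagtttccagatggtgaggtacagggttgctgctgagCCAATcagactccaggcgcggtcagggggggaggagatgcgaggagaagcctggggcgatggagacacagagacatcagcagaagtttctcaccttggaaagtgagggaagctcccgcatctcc
Wif1: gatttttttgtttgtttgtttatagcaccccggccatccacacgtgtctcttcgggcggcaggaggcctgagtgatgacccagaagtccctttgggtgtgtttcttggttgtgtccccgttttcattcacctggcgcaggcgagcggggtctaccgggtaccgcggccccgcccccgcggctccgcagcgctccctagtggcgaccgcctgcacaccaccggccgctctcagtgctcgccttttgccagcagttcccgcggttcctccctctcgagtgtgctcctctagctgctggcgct
Fzd1: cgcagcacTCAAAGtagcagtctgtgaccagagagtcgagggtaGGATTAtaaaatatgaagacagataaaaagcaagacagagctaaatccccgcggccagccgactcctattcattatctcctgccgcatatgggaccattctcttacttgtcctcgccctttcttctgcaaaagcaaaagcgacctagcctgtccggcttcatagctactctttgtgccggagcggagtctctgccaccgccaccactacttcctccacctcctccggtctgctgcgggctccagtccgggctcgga
Neither Wnt16 nor Wif1 held TAATCC or CTTTGA in this window, and Wnt16 held 2 CCAAT boxes. Over the members, TAATCC was found in 4 of 35 windows (11.4%, against 7.06% of 32851 windows of all genes), CTTTGA in 5 (14.3%, against 16.0%) and CCAAT in 10 (28.6%, against 37.4%). The members' windows had a median GC content of 67.3%, against 52.7% for all windows. A match is not a measured site, and no match says only that these letters are not in the window.

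Among the other ligands, Wnt7a, Wnt7b and Wnt5b had their lowest values in the same 5 mice. Wnt7b, a ligand of the β-catenin pathway in vessels and epithelia, was at 18.6, 0.343 and 28.5 CPM in P30 mice 1, 2 and 3, at 40.0, 29.0 and 0.320 CPM at P32, at 0.525, 0.465 and 1.18 CPM at P34 and at 29.3, 18.4 and 3.46 CPM at P38. Its P30 and P32 groups each held 1 mouse (mouse 2 and mouse 6) at the level of the P34 mice. At P34 its log2 fold change was -4.48 (standard error 1.58, adjusted p = 0.342 by edgeR).

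Wnt7a, its closest relative, was at 3.67, 0.0202 and 6.03 CPM at P30, at 7.35, 5.20 and 0.0493 CPM at P32, at 0.0276, 0.0735 and 0.102 CPM at P34 and at 4.59, 2.02 and 1.22 CPM at P38. The 3 P34 libraries held 7 counts in all, and P30 mouse 2 held 1. For Wnt7a the log2 fold change at P34 was -5.54 (standard error 1.78, adjusted p = 0.293 by edgeR). Wnt5b, a ligand that mostly signals without β-catenin, was at 8.63, 2.48 and 7.82 CPM at P30, at 16.7, 9.20 and 3.38 CPM at P32, at 2.29, 1.96 and 2.17 CPM at P34 and at 9.34, 6.59 and 4.07 CPM at P38. All P34 values of Wnt5b were below the P30 values, with P30 mouse 2 only slightly above them. Its log2 fold change at P34 was -1.56 (standard error 0.56, adjusted p = 0.352 by edgeR).

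The R-spondin Rspo1 and the inhibitor Sfrp1 had a similar order of mice. Rspo1 was at 4.2, 0.262 and 6.15 CPM at P30, at 9.09, 6.23 and 0.0739 CPM at P32, at 0 (0 counts), 0.171 and 0.102 CPM at P34 and at 6.04, 3.26 and 0.611 CPM at P38. Its P34 values lay below all P30 values, and P32 mouse 6 was as low as they were (log2 fold change at P34 -5.19, standard error 1.66, adjusted p = 0.291 by edgeR). Sfrp1, which encodes a secreted protein with a Frizzled-like domain, was at 63.1, 28.7 and 102 CPM at P30, at 121, 82.3 and 5.40 CPM at P32, at 6.63, 5.73 and 5.25 CPM at P34 and at 95, 60.4 and 14.2 CPM at P38. Here P30 mouse 2 was well above the P34 mice while P32 mouse 6 was not. For Sfrp1 the log2 fold change at P34 was -3.46 (standard error 0.94, adjusted p = 0.202 by edgeR).

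In 4 members, Wnt5b, Wnt7a, Wnt7b and Rspo1, all 5 mice with under 1000 CPM of lens markers lay below all 7 other mice (9.76% of the members, against 0.687% of all genes), and in 0 members all 5 lay above. This is a description, since the mice were sorted by a marker level and not by a label. In the 5 libraries Wnt7a held 1 to 3 counts and Rspo1 0 to 13, so both met the count minimum through the other 7 mice. The pattern is thus partly built into their membership, and the 9.76% cannot be set against all genes as independent support. In those 5 mice Wnt7b was at 0.320 to 1.18 CPM against 3.46 to 40.0 CPM in the other 7, and Wnt7a at 0.0202 to 0.102 against 1.22 to 7.35 CPM. Dkk1, an inhibitor that binds LRP co-receptors, was at 0 to 0.0677 CPM in the 5 and at 0 to 0.340 CPM in the 7, with at least 10 counts in only 3 libraries. With the mean log2 CPM of the lens markers as a covariate, the log2 fold change at P34 was -0.37 for Wnt7a, 0.53 for Wnt7b, -0.22 for Wnt5b, -1.15 for Rspo1 and -1.51 for Sfrp1, while that of Wnt16 was -4.79 and that of Wif1 -4.95, neither past the threshold (edgeR adjusted p = 0.0937 and 0.0630). With the ciliary body and iris score as a covariate the direction turned, to 3.75 for Wnt7a, 6.92 for Wnt7b, 2.06 for Wnt5b, 5.83 for Rspo1 and 4.33 for Sfrp1. In that fit 0 of 18628 genes passed in any comparison, and the score itself separated the P34 mice (-0.39 to 0.18) from all other mice (1.14 to 2.41). Sfrp1 passed where only the P30 and P34 mice were fitted (edgeR adjusted p = 0.00762). By DESeq2, Wnt7a, Rspo1 and Sfrp1 passed at P34 without that covariate (DESeq2 adjusted p = 0.0311, 0.0404 and 0.0201).

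**Figure D4:**
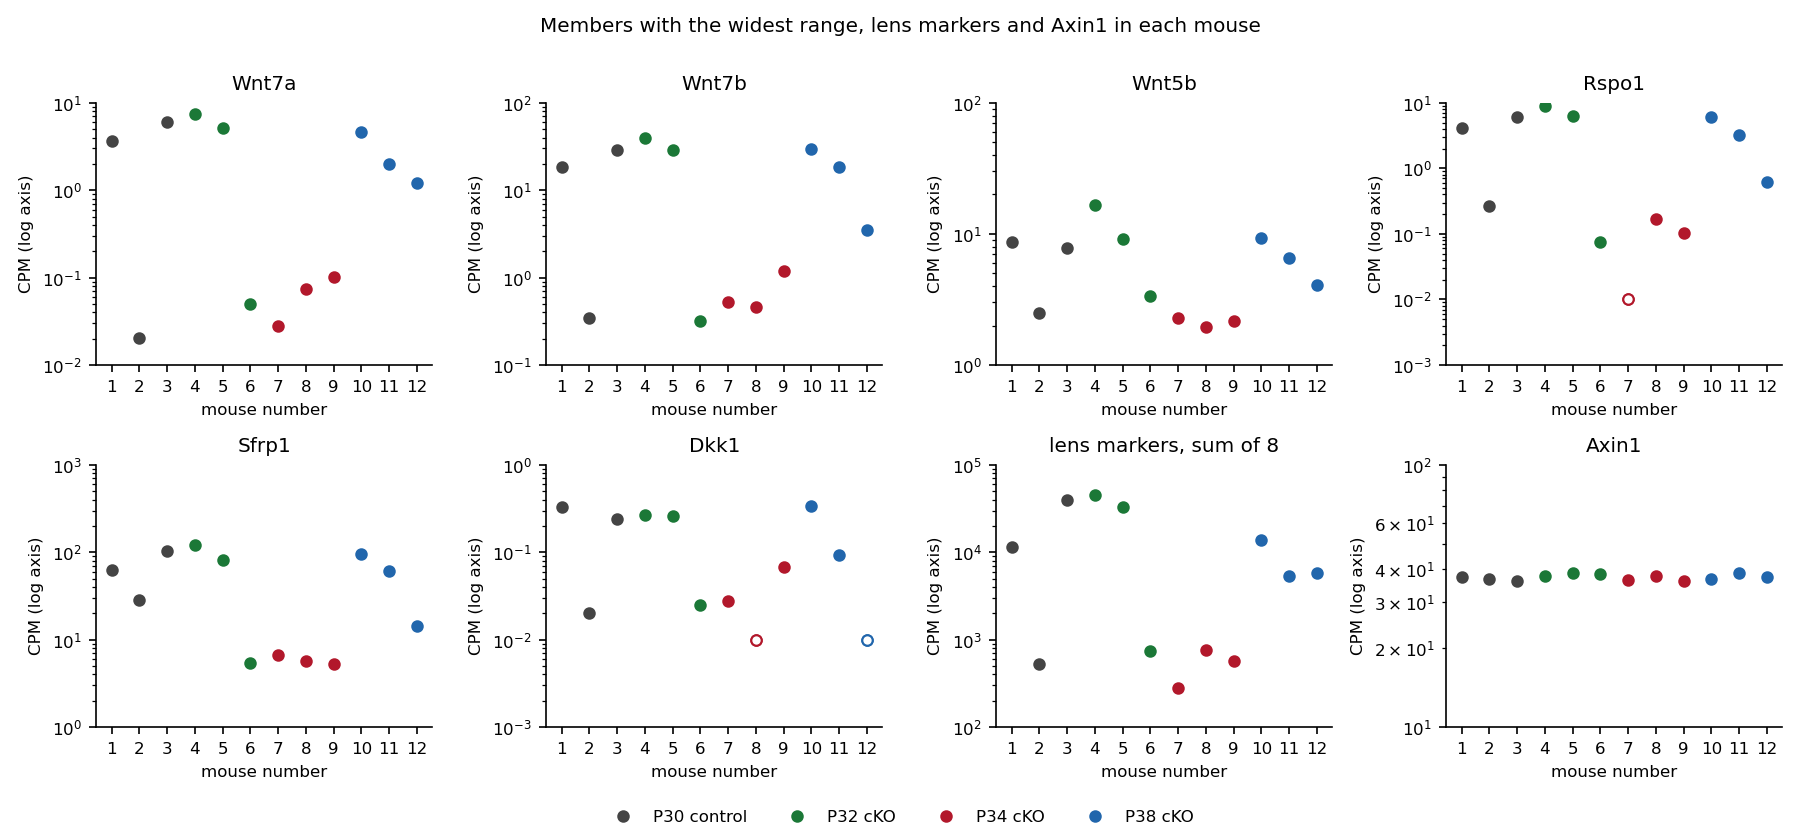
Levels of 6 members, the summed lens markers and Axin1 in each mouse, in CPM on log axes; open points are 0 counts, drawn at 0.01 CPM. P30 mouse 2, P32 mouse 6 and the 3 P34 mice are low in Wnt7a, Wnt7b, Wnt5b and Rspo1 and in the lens markers, whereas Axin1 is nearly level over all 12 mice.

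Over all 12 ligands, 6 were lower at P34 at an unadjusted p (50%, against 5.42% of all genes) and 2 at P38 (16.7%, against 2.66%), with Wnt16 and its limit from membership in both counts. Those not yet described are Wnt5a, Wnt10a and Wnt11. Wnt5a was at 11.7, 13.6 and 11.5 CPM at P30 and at 7.46, 9.06 and 6.53 CPM at P34, without overlap, while it was at 7.92, 13.0 and 9.93 CPM at P32 and at 12.8, 14.2 and 5.36 CPM at P38, both overlapping P30 (log2 fold change at P34 -0.67, standard error 0.30, adjusted p = 0.468 by edgeR). Wnt10a was at 0.331, 0.586 and 0.921 CPM at P30 and at 0.193, 0.269 and 0.203 CPM at P34, again without overlap (log2 fold change -1.41, standard error 0.43, adjusted p = 0.256 by edgeR), and it was at 0.570, 0.362 and 0.320 CPM at P32 and at 0.291, 0.305 and 0.441 CPM at P38, both overlapping P30. Wnt11 was at 1.28, 1.27 and 1.01 CPM at P30, at 1.47, 0.905 and 0.764 CPM at P32, at 0.939, 0.808 and 0.677 CPM at P34 and at 0.752, 0.797 and 0.577 CPM at P38. All P34 and P38 values of Wnt11 lay below P30 (by edgeR a P34 log2 fold change of -0.55, adjusted p = 0.530, and a P38 log2 fold change of -0.74 with a standard error of 0.29 and an adjusted p of 0.847).

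Wnt2b, a ligand of the developing ciliary margin, was chosen for mention after its values were seen, as the only member higher at P34 than at P32 at an unadjusted p with a change of 0.5 or more on the log2 scale. It was at 3.08, 3.67 and 5.23 CPM at P30, at 1.65, 2.79 and 4.24 CPM at P32, at 6.93, 4.43 and 8.19 CPM at P34 and at 5.05, 7.11 and 6.52 CPM at P38. All P34 and P38 values were above all P32 values, and both groups overlapped the P30 group. Its log2 fold change was 1.16 (standard error 0.34, adjusted p = 0.0962) between P32 and P34 and 1.10 (standard error 0.34, adjusted p = 0.123) between P32 and P38 by edgeR. The ligands Wnt3, Wnt4, Wnt9a and Wnt9b had at most a 2.96-fold range over the 12 mice and no unadjusted p under the limit against P30. Wnt3 and Wnt9b lie next to each other on chromosome 11, 24328 bases apart and on opposite strands, while Wnt9a and Wnt10a each have as a neighbor a ligand under the count minimum, Wnt3a at 16175 bases and Wnt6 at 6193 bases.

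Among the Frizzled receptors, Fzd5, the most abundant per kb, was at 51.9, 57.5 and 49.7 CPM at P30, at 48.6, 58.3 and 58.9 CPM at P32, at 52.0, 63.6 and 57.9 CPM at P34 and at 50.4, 54.7 and 58.6 CPM at P38. Fzd3, a receptor best known for axon guidance, was at 69.8, 81.4 and 91.8 CPM at P30, at 50.1, 68.2 and 80.9 CPM at P32, at 87.7, 95.6 and 92.7 CPM at P34 and at 77.3, 96.3 and 90.9 CPM at P38. Values of both receptors overlapped between each cKO age and P30, with log2 fold changes between -0.29 and 0.18 for Fzd3 and between 0.04 and 0.13 for Fzd5.

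At P34, 2 receptors were lower at an unadjusted p with a change of 0.5 or more on the log2 scale, which is 20.0% of the 10 receptors, against 5.42% of all genes. Fzd7 had a smaller change and was at 8.19, 8.44 and 9.45 CPM at P30, at 8.61, 9.07 and 7.32 CPM at P32, at 6.30, 6.12 and 7.48 CPM at P34 and at 7.74, 8.09 and 5.94 CPM at P38, with the P34 and P38 values below all P30 values (P34 log2 fold change -0.39, standard error 0.16, adjusted p = 0.425 by edgeR). Fzd8 was at 4.95, 4.91 and 5.97 CPM at P30, at 4.95, 4.52 and 4.95 CPM at P32, at 3.04, 2.87 and 4.10 CPM at P34 and at 4.85, 5.35 and 4.18 CPM at P38. Its 3 P34 values were the lowest of the 12, and the log2 fold change was -0.66 (standard error 0.18, adjusted p = 0.205 by edgeR). Fzd1 was at 10.9, 8.14 and 18.3 CPM at P30, at 14.1, 14.6 and 6.14 CPM at P32, at 7.10, 4.70 and 7.45 CPM at P34 and at 14.4, 12.4 and 5.91 CPM at P38 (log2 fold change at P34 -0.95, standard error 0.41, adjusted p = 0.443 by edgeR). The P34 values of Fzd1 lay below the P30 values, but P32 mouse 6 and P38 mouse 12 were as low. The other 6 receptors were Fzd2, Fzd4, Fzd6, Fzd7, Fzd9 and Fzd10, and their highest value over the 12 mice was 1.59 (Fzd7) to 3.63 (Fzd2) times the lowest. Among these, every P34 value was below P30 for Fzd2 and Fzd7 and above it for Fzd10. So 4 of 10 receptors were below without overlap (40.0%, against 9.67% of all genes) and 1 above (against 10.4% of all genes).

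Over all 41 members, every P34 value was below every P30 value in 15 (36.6%, against 9.67% of all genes) and above in 1 (10.4% of all genes were above). The corresponding counts below were 3 at P32 (7.32%, against 4.39%) and 5 at P38 (12.2%, against 7.96%), with 1 above at P32, Axin1 (against 5.26%), and 0 above at P38 (against 8.23%). Every one of the 9 cKO values was below P30 in 1 member only, Tcf7 (2.44%, against 0.478% of all genes).

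The LRP co-receptors, which are needed for the β-catenin branch, did not share a pattern. Lrp6 was at 73.0, 92.5 and 93.3 CPM at P30, at 76.4, 81.3 and 87.5 CPM at P32, at 75.5, 92.7 and 81.7 CPM at P34 and at 79.4, 86.9 and 83.0 CPM at P38, with every group inside the P30 range. Lrp5, which serves Norrin signaling with Fzd4, was at 10.9, 13.7 and 10.1 CPM at P30 and at 4.35, 9.56 and 8.60 CPM at P32, all lower, before 10.7, 10.0 and 10.4 CPM at P34 and then 8.47, 12.8 and 10.9 CPM at P38. At P32 the log2 fold change of Lrp5 was -0.63 (standard error 0.25, adjusted p = 0.698 by edgeR), and without P32 mouse 4 it was -0.35. Among the R-spondins, Rspo2 was at 4.42, 3.31 and 2.59 CPM at P30, at 1.89, 1.60 and 3.60 CPM at P32, at 2.82, 1.0 and 3.08 CPM at P34 and at 2.06, 1.78 and 2.78 CPM at P38, overlapping in every comparison with P30. Rspo3 stayed at or under 0.485 CPM and Rspo4 between 0.420 and 1.24 CPM.

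Among the remaining inhibitors, Dkk2 was at 0.631, 1.35 and 1.22 CPM at P30, at 0.450, 1.14 and 0.690 CPM at P32, at 0.607, 0.392 and 0.508 CPM at P34 and at 0.509, 0.610 and 0.339 CPM at P38. Its P34 and P38 values were all below the P30 values, P30 mouse 1 being close to them. By edgeR its log2 fold change was -1.08 at P34 (standard error 0.40, adjusted p = 0.381) and -1.10 at P38 (standard error 0.40, adjusted p = 0.847). Sfrp2 was at 0.726, 0.949 and 0.624 CPM at P30, at 0.540, 1.06 and 0.813 CPM at P32, at 0.801, 0.612 and 0.575 CPM at P34 and at 0.534, 0.797 and 0.95 CPM at P38, with overlap throughout. Sfrp4 (0.840 to 1.38 CPM) and Sfrp5 (0.169 to 0.485 CPM) overlapped as well.

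Of the intracellular members, Axin1, the scaffold of the destruction complex, was at 37.5, 36.9 and 36.1 CPM at P30, at 37.5, 38.8 and 38.2 CPM at P32, at 36.3, 37.5 and 36.0 CPM at P34 and at 36.8, 38.6 and 37.3 CPM at P38. Its highest value was 1.08 times the lowest, the narrowest range of the 41 members. Axin2, a scaffold that is itself a target of β-catenin, was at 21.5, 27.0 and 30.2 CPM at P30, at 16.0, 26.3 and 28.8 CPM at P32, at 26.1, 28.5 and 30.2 CPM at P34 and at 25.4, 27.3 and 28.4 CPM at P38. P34 and P30 values of Axin2 overlapped, and the log2 fold change at P34 was 0.11 (standard error 0.19, adjusted p = 0.891 by edgeR).

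Of the 4 TCF/LEF factors, 1 was lower at an unadjusted p at P34 (25.0%, against 5.42% of all genes) and 2 at P38 (50%, against 2.66%). Tcf7 was at 1.42, 1.86 and 1.93 CPM at P30, at 1.35, 1.40 and 0.838 CPM at P32, at 1.19, 1.03 and 1.12 CPM at P34 and at 0.776, 1.13 and 0.815 CPM at P38. All 9 cKO values lay below the P30 values, P32 mouse 5 by the least. By edgeR its log2 fold change was -0.64 at P34 (standard error 0.26, adjusted p = 0.425), -0.93 at P38 (standard error 0.26, adjusted p = 0.764) and -0.69 over all 9 cKO mice (standard error 0.21, adjusted p = 0.885), so that it passed in none of them.

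Tcf7l2 was at 6.09, 6.58 and 3.95 CPM at P30, at 6.78, 5.04 and 5.18 CPM at P32, at 2.93, 4.65 and 4.23 CPM at P34 and at 3.30, 4.03 and 3.22 CPM at P38. P30 mouse 3 lay among the P34 and P38 mice (log2 fold change at P38 -0.66, standard error 0.24, adjusted p = 0.847 by edgeR). Tcf7l1, the most abundant factor of this group per kb, was at 5.30, 5.43 and 4.96 CPM at P30, at 5.10, 5.48 and 3.50 CPM at P32, at 4.09, 4.58 and 3.28 CPM at P34 and at 4.90, 4.97 and 3.36 CPM at P38, below P30 at P34 alone (log2 fold change -0.39, standard error 0.22, adjusted p = 0.561 by edgeR). Lef1 was at 1.34 to 2.24 CPM over all mice.

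Between the cKO ages, 0 members passed the threshold by edgeR (0.242% of all genes were lower at P34 than at P32, 0.199% higher at P38 than at P34 and 0.0% changed between P32 and P38). At an unadjusted p, 10 members were lower at P34 than at P32 (24.4%, against 8.93% of all genes) and 1 was higher (against 5.49% of all genes), with 8 members past the threshold by DESeq2 (19.5%, against 7.63% of all genes). The 10 were Wnt4, Wnt5b, Wnt7a, Wnt7b, Fzd2, Fzd8, Rspo1, Sfrp1, Wif1 and Tcf7l2. From P34 to P38, 7 members were higher at an unadjusted p (Wnt5b, Wnt7a, Wnt7b, Fzd8, Rspo1, Sfrp1 and Wif1; 3.01% of all genes were higher) and 0 were lower (0.8% of all genes), with 1 by DESeq2, Wif1 (0.773% of all genes). Between P32 and P38 there were 2 lower, Fzd9 and Tcf7l2 (against 6.23% of all genes), and 1 higher, Wnt2b (against 5.68%), with 1 by DESeq2, Wnt2b (4.99% of all genes). Without P32 mouse 6, the P32 mouse with few lens markers, 8 members passed between P32 and P34 by edgeR (19.5%, against 14.3% of all genes in that fit) and 2 between P32 and P38 (4.88%, against 10.2%).

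Other genes of the pathway were taken from 3 lists. Of 55 further components tested, 1 was lower at P34 than at P30 by edgeR's adjusted p, Notum (1.82%, against 0.66% of all genes), and 0 were higher (0.0% of all genes). At an unadjusted p 9 of these were lower (16.4%, against 5.42% of all genes) and 1 higher (against 0.854%). Notum encodes an enzyme that removes the lipid from Wnt ligands. It was at 1.77, 1.66 and 1.75 CPM at P30, at 1.86, 2.46 and 0.813 CPM at P32, at 0.166, 0.0490 and 0.169 CPM at P34 and at 0.970, 1.48 and 0.95 CPM at P38, with the P34 values far below all others. Notum had a log2 fold change at P34 of -3.76 (standard error 0.49, adjusted p = 0.00348 by edgeR), and it did not pass with the ciliary body and iris or the pigment score as a covariate (-1.33 and -3.21). With the ciliary body and iris score 0 of 18628 genes passed, so that loss is not particular to Notum. With P30 mouse 1 as the only control the log2 fold change of Notum was -3.80.

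Wls, the carrier that takes Wnt ligands to the cell surface, was at 29.0, 24.7 and 42.1 CPM at P30 and at 8.81, 6.91 and 7.45 CPM at P34 (log2 fold change -2.05, standard error 0.57, adjusted p = 0.214 by edgeR), without overlap. It was at 35.8, 31.2 and 6.95 CPM at P32 and at 40.4, 27.3 and 9.57 CPM at P38, so that P32 mouse 6 and P38 mouse 12 were low too. Ctnnb1, which encodes β-catenin, was at 451 to 483 CPM at P30 and at 430 to 513 CPM at P34. Of 15 tested genes from a list of feedback targets of β-catenin, which shares Axin2, Lef1, Tcf7, Dkk1 and Dkk2 with the members, 2 were lower at P34 by edgeR's adjusted p, Notum and Nkd2 (13.3%, against 0.66% of all genes), 6 were lower at an unadjusted p (40.0%, against 5.42%), and 0 were higher. Nkd2, an antagonist of the pathway that binds Dishevelled, was at 3.14, 5.37 and 4.64 CPM at P30, at 2.61, 3.28 and 1.68 CPM at P32, at 1.60, 0.906 and 1.22 CPM at P34 and at 2.18, 1.83 and 1.60 CPM at P38, with the P34 and P38 values below all P30 values (P34 log2 fold change -1.82, standard error 0.31, adjusted p = 0.0199 by edgeR). Nkd2 did not pass without P30 mouse 2 or 3 (edgeR adjusted p = 0.101 and 0.0741) or without P34 mouse 8 or 9 (0.130 and 0.125), with log2 fold changes of -1.63 to -1.82 in these fits. With the lens score its log2 fold change was -1.71, with the pigment score -0.84, with the ciliary body and iris score -0.28 and with P30 mouse 1 as the only control -1.34, none past the threshold.

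In the list of Norrin signaling and its endothelial targets, which shares Fzd4 and Lrp5 with the members, 0 of 14 genes passed at P34 by edgeR or in the other comparisons with P30, and 1, Slc2a1, was lower at P34 at an unadjusted p (7.14%, against 5.42% of all genes). Ndp, which encodes Norrin, was at 13.8, 13.2 and 10.3 CPM at P30 and at 13.3, 11 and 10.3 CPM at P34, and Tspan12, which encodes its co-receptor, at 15.1 to 17.4 and at 14.1 to 16.8 CPM. Fzd4 was at 18.3, 23.9 and 26.9 CPM at P30 and at 17.3, 18.9 and 22.5 CPM at P34 (log2 fold change -0.23, standard error 0.16, adjusted p = 0.647 by edgeR). The sum of 8 endothelial markers was 246 to 282 CPM at P30 and 254 to 328 CPM at P34. Most of it was Kdr, at 229, 240 and 200 CPM at P30 and at 274, 270 and 218 CPM at P34. Each of the others was at most 20.1 CPM in these mice, so the sum mainly follows 1 gene.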

How the data were processed

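Per the labels and the study's methods, stranded mRNA libraries were read as single 50 bp reads, demultiplexed with bcl2fastq 2.17.1.14, mapped to mm10 with STAR 2.5.3a and counted in union mode over Ensembl 93 genes with HTSeq 0.6.1p1 (versions from the submitters' processing notes). Raw whole-number counts, 1 per gene and mouse, are what the authors deposited. Reads with several positions were not counted, and their entry made up 23.7 to 32.2% of the sum of all entries of the counting, which need not be their share of reads. The strand setting of the counting is not given in the sources used here.

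From the counts, CPM and tests were computed with edgeR 4.0.16 in R 4.3.3 (TMM scaling, the default filter on low counts over the 4 conditions, quasi-likelihood F test with all 12 mice in 1 fit and 1 mean per condition, and a separate fit for the 9 cKO mice as one group). Benjamini-Hochberg adjustment ran over all 18628 genes tested. Each library is a separate mouse. The standard error is the size of the log2 fold change divided by the square root of F. Symbols, GRCm38 positions and exon lengths came from GENCODE M21, which matched 54079 of 54146 genes. The procedure was tested on simulated counts. Members at the threshold in any comparison, members at an unadjusted p of at most 0.05 with a log2 change of at least 0.5 against P30 and the 2 most abundant per kb in each role are given per mouse. The members and lists were chosen with earlier results of these data known, and the study itself names Wnt16 and Wif1. It lists Wnt16 as downregulated at P32, P34 and P38 and Wif1 at P34 and P38, whereas DESeq2 here passed no member at P38. A figure legend of the study gives fewer P30 control mice than the 3 used here, while its methods give 3. The reason for the difference was not tested. Alternatives were other scalings, filters, a robust fit, DESeq2 1.42.0, fits of only the conditions compared, covariates, other thresholds and leaving out each mouse. The lens and pigment covariates and the fit with P30 mouse 1 as the only control were added after seeing the data.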

Additional observations from a re-analysis of the deposited data

Results flagged for a closer look

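Notum, the deacylase of Wnt ligands, differed between cKO ages (edgeR quasi-likelihood, Benjamini-Hochberg adjusted p), with a log2 fold change of -3.75 from P32 to P34 (adjusted p = 0.00641) and of 3.17 from P34 to P38 (adjusted p = 0.0270). All 3 P34 values lay below the 3 values of either other age. The ciliary body and iris markers moved the same way, from 58.0 to 146 CPM at P32 to 12.9 to 19.1 CPM at P34 and 56.7 to 104 CPM at P38. With their score as a covariate the log2 fold changes of Notum were -1.60 and 1.24, neither past the threshold (edgeR adjusted p = 0.717 and 0.482), and with the lens score -3.23 and 2.80 (edgeR adjusted p = 0.113 and 0.189). In the fit with the ciliary body and iris score 0 of 18628 genes passed, and that score separated the P34 mice from all others. Lost calls in that fit are thus not particular to Notum. The first call was also lost without P34 mouse 8 (edgeR adjusted p = 0.0566) or with only the conditions compared (0.128), and the second without any 1 of the P30 or P34 mice or P38 mouse 10 or 11 (edgeR adjusted p = 0.0506 to 0.175), with log2 fold changes of 2.74 to 3.44, as well as with the pigment score (3.02, edgeR adjusted p = 0.0537) and with P30 mouse 1 as the only control (3.16, edgeR adjusted p = 0.101). In the same edgeR fit, with the default filter on low counts and all 12 mice, no member of the family itself passed between the cKO ages.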

How the results depend on the processing

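Of the counts of members past the threshold, 145 alternative values were within 1.5 times the reported one and 36 were not. The 2 members lower at P34 became 5 without a filter on low counts, 6 with DESeq2, 13 at an unadjusted p, 1 with sex (Xist over 10 CPM) as a covariate, and 0 with the ciliary, lens or pigment score as a covariate or with P30 mouse 1 as the only control. Of all genes, 123 were lower at P34 as reported, 294 of 33982 without the filter, 353 with DESeq2, 142 with sex, 53 with the lens, 10 with the pigment and 0 with the ciliary score, and 22 with P30 mouse 1 as the only control. At P32 the count went from 0 to 1 without the filter and with DESeq2 and to 3 at an unadjusted p, at P38 to 6 at an unadjusted p, and over all 9 cKO mice to 1 with library totals, without the filter and with DESeq2 and to 5 at an unadjusted p. Between P32 and P34 it went to 7 without the filter, 8 with DESeq2 and 11 at an unadjusted p, between P34 and P38 to 1 without the filter, with DESeq2 and with only the conditions compared and to 7 at an unadjusted p, and between P32 and P38 to 1 with DESeq2 and 3 at an unadjusted p. Without the filter 17 genes were lower and 6 higher at P32, 425 and 231 between P32 and P34, 3 and 112 between P34 and P38 and 26 and 0 over all 9 cKO mice, where library totals gave 18 lower, and with only the conditions compared 70 were higher from P34 to P38. Leaving out each mouse in turn gave 0 to 3 members at P34 (0 without P30 mouse 2 or any P34 mouse, and 3 without P32 mouse 6), 0 to 1 at P32 and over all 9 cKO mice (1 without P30 mouse 1), 0 at P38 and between P34 and P38, 0 to 8 between P32 and P34 and 0 to 2 between P32 and P38 (the highest without P32 mouse 6). Over the same fits 43 (without P34 mouse 8) to 211 (without P32 mouse 6) of all genes were lower at P34, 0 to 19 at P32 and 0 to 48 over all 9 cKO mice (the highest without P30 mouse 1), and without P32 mouse 6 1310 were lower and 1416 higher between P32 and P34 and 704 and 1242 between P32 and P38. Wnt16 at P34 also lost its call with only the conditions compared (adjusted p = 0.0522 by edgeR), where Sfrp1 gained one, and without P30 mouse 3 and without P38 mouse 10 or 11, and its log2 fold change over all mice left out was -5.09 to -4.15, against -6.21 to -4.91 for Wif1. The causes were not tested.

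With the ciliary score as a covariate, log2 fold changes against P30 at P34 turned to 0.52 (Tcf7), 0.088 (Wnt5a), 6.92 (Wnt7b), 5.83 (Rspo1), 3.75 (Wnt7a), 2.06 (Wnt5b), 4.33 (Sfrp1) and 2.07 (Fzd1), those between P32 and P34 to 5.67 (Wnt7b), 4.62 (Rspo1), 2.79 (Wnt7a), 1.04 (Wnt5b), 3.71 (Sfrp1), 0.092 (Wnt4) and 0.93 (Fzd2), and those between P34 and P38 to -4.56 (Wnt7b), -3.89 (Rspo1), -1.95 (Wnt7a), -1.24 (Wnt5b) and -3.14 (Sfrp1), none past the threshold by edgeR. With the lens score Wnt7b turned to 0.53 at P34 and, between P32 and P34, Wnt7b to 1.05 and Wnt7a to 0.26. With the pigment score Wif1 turned to 0.23 at P32, 0.080 at P38 and 0.25 over all 9 cKO mice, Dkk2 to 0.10 at P34 and 0.12 over all 9 cKO mice, and Fzd1 to 0.070 at P34. No paired analysis was possible because the mice are numbered 1 to 12 through the series and the groups share no number. Members with few counts limit the precision: 32 of 41 had at least 10 counts in every library, and 12 never reached 100.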
